A study of Mus musculus with 10 samples.

Results

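RNA and open chromatin on entry into middle pachytene were described by setting middle and late pachytene spermatocytes (mP/lP, named pSC in the cell table) beside leptotene, zygotene and early pachytene spermatocytes (L/Z/eP, named Lep_Zygo2). Both populations were taken by name from the deposited table of scRNA-seq cells and from the pooled gene matrices of scRNA-seq and scATAC-seq. They held 5055 and 8107 of 45250 scRNA-seq cells, together 29.1%. 13394 of 28125 genes were compared in RNA and 30602 of 30657 nuclear genes in accessibility. The cells came from nuclei of wild-type C57BL/6J testes at 11, 17 and 25 days postpartum (dpp) and of an 8-week-old Cre/+ testis, which carries Stra8-Cre, a Cre recombinase made from the meiotic entry gene Stra8, and keeps Nfya. The Nfya-CKO library of the same age, in which Stra8-Cre deletes part of Nfya in germ cells, gave no cell to either population. There was 1 library per condition and assay, and each population has 1 pooled value per gene, so no difference in a gene below has a replicate check or a test. UMIs and genes per cell could be compared within 3 libraries.

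Meiotic prophase begins with programmed DNA breaks, which are repaired while homologous chromosomes pair along the synaptonemal complex. Chromosomes of early prophase carry little RNA synthesis, and transcription resumes in pachytene under A-MYB (Mybl1), which binds the DNA core AAC followed by any base and G, and the bromodomain protein BRDT. Long precursors of piRNAs, small RNAs that guide PIWI proteins, and messengers of the sperm tail and acrosome are made at that time. The X and Y chromosomes stay unpaired over most of their length and are silenced in the sex body.

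UMIs per cell, each UMI marking 1 captured RNA molecule, were higher in mP/lP. The median was 1633 UMIs in L/Z/eP, with quartiles of 1108.5 and 2590.5, and 6969 in mP/lP, with quartiles of 4698.5 and 11159.5. This is a 4.27-fold difference, and the ranges between quartiles did not overlap. 98.8% of mP/lP cells (exact Clopper-Pearson 95% interval 98.5 to 99.1%) lay above the L/Z/eP median, and 0.592% of L/Z/eP cells (0.437 to 0.784%) above the mP/lP median. These intervals cover counting error only. The median number of genes per cell rose from 893 to 2751, a ratio of 3.08. The neighbouring steps went the other way, with a ratio of 0.758 for L/Z/eP over the population before it, leptotene and zygotene cells (eL/L/Z), and of 0.527 from mP/lP to diplotene cells.

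Both populations occurred in 3 libraries with cells of each. Within the wild-type 17 dpp library the median went from 1765.5 UMIs in 266 cells to 8061 in 63, within the 25 dpp library from 1644 in 7583 to 5850 in 3575, and within the Cre/+ library from 1239 in 212 to 13985 in 1411. The ratios were 4.57, 3.56 and 11.3, above 1 in 3 of 3 libraries with a geometric mean of 5.68. The exact paired permutation test over these libraries gave p = 0.25 (two-sided), the smallest that 3 pairs allow. Genes per cell had ratios of 3.39, 2.69 and 6.79 and the same p of 0.25 in that exact test. The Cre/+ library had the highest mP/lP median and the lowest L/Z/eP median of the 3. Most of its mP/lP cells, 1317, lay in a cluster of 1335 mP/lP cells with a median of 14550 UMIs, while the other mP/lP cluster, 3720 cells that are 95.7% from 25 dpp, had 5840. Without the smaller cluster the ratio over all libraries was 3.58, and without the 25 dpp library it was 9.16.

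Libraries shared cell barcodes. 5037 barcodes occurred in more than 1 scRNA-seq library, 3820 of them in both 8-week-old libraries. In mP/lP, 1203 of 5055 cells (23.8%, exact Clopper-Pearson 95% interval 22.6 to 25.0%) carried such a barcode, and in L/Z/eP 267 of 8107 (3.29%, 2.92 to 3.71%). In the Cre/+ library it was 1110 of 1411 mP/lP cells (78.7%, 76.4 to 80.8%), and every one of these barcodes was named a somatic cell in the Nfya-CKO library, with a median of 1201 UMIs there against 16778.5 in Cre/+. mP/lP cells with a shared barcode had a median of 16708 UMIs and those without 5852.5. In L/Z/eP it was the other way, with 715 UMIs in cells with a shared barcode and 1676 in those without. Without shared barcodes the medians were 1676 and 5852.5 UMIs, a ratio of 3.49, and the 3 libraries gave closer ratios of 3.11 (17 dpp), 3.47 (25 dpp) and 4.78 (Cre/+). Cre/+ cells, 8 weeks old, were 27.9% of mP/lP and 2.62% of L/Z/eP, and wild-type 25 dpp cells 70.7% and 93.5%. The gene matrices pool these cells and cannot be split by library or barcode. The part of shared barcodes, age and genotype in the values per gene was therefore not tested.

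**Figure D1:**
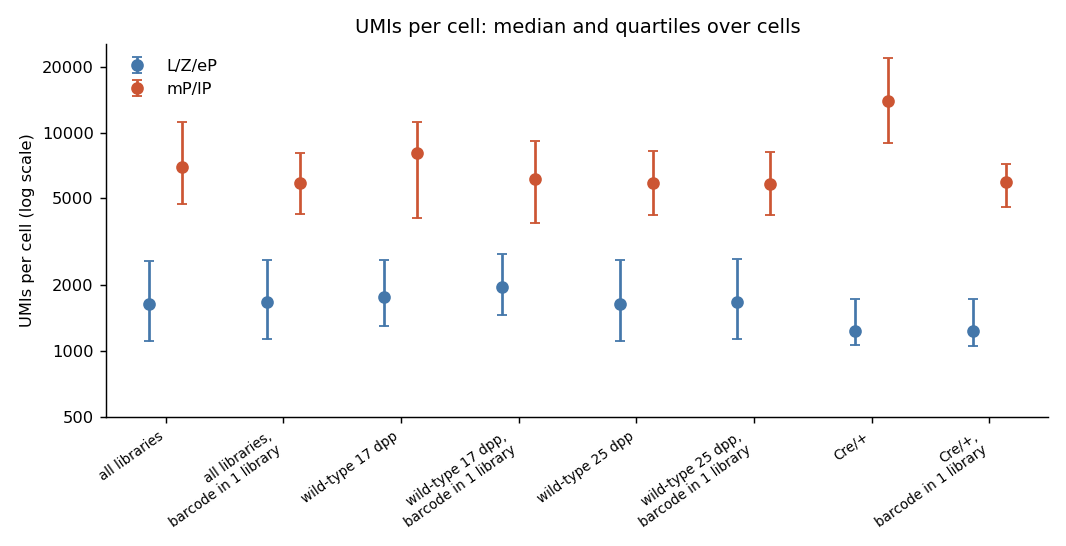
UMIs per cell on a log axis for both populations, over all libraries and within each library that holds both, for all cells and for cells whose barcode occurs in 1 library; points are medians and bars run from the first to the third quartile over cells. mP/lP lay above L/Z/eP in each case, and the Cre/+ median of 13985 came down to 5920 without shared barcodes.

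At matched depth little of the difference in genes per cell was left. Cells of 2000 to 3000 UMIs had a median of 1246 genes in L/Z/eP against 1317 in mP/lP, a ratio of 1.06. The ratio was 1.09 for cells of 3000 to 5000 UMIs and 1.11 for cells of 5000 to 10000 UMIs, although mP/lP cells lay higher within each of these windows. The scATAC-seq cells with the same names also differed in depth, with medians of 5220 fragments in 5805 L/Z/eP cells and 8905 in 4523 mP/lP cells. Cre/+ cells were 1.41% of the former and 28.7% of the latter, and the medians were 5181 and 7131 fragments within the 25 dpp library, 5619 and 19550.5 within Cre/+, and 7202 and 26443 within 17 dpp. The median TSS enrichment, the excess of fragments at transcription start sites, was 15.02 and 12.48, and the median percent of fragments in promoters 23.8 and 19.4. The part of these differences in the accessibility values per gene was not tested. The median share of mitochondrial UMIs was 0.719% in L/Z/eP against 0.625% in mP/lP, being 0.490% in the larger mP/lP cluster and 1.15% in the smaller.

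Marker sums for the stages of both populations followed their names. The study named its clusters by marker expression, so this is not independent evidence. Markers of middle pachytene to diplotene summed to 15.9 UMIs per 10000 UMIs in L/Z/eP and to 27.8 in mP/lP. All 8 were higher in mP/lP, 2 of them at least 2-fold. Markers of leptotene to early pachytene summed to 9.88 and 6.59. Of these 6, 3 were at least 2-fold lower and 1, Spo11, was higher in mP/lP. Preleptotene markers summed to 2.85 and 1.28, and those of spermatogonia to 2.46 and 2.58. Spermatid markers rose from 1.42 to 4.47, against 42.3 in round spermatids, and 4 of the 7 compared were at least 2-fold higher. Sertoli markers fell from 8.32 to 3.58, against 105 in Sertoli cells, and 5 of the 8 compared were at least 2-fold lower. No marker of either list was at 0 in either population. The part of RNA from spermatids and Sertoli cells in the results below was not tested.

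The matrices give each gene as a mean over a population that sums to 10000 over all genes. It is read here as a share of the UMIs of the population, as UMIs per 10000 UMIs, although the mean may weight cells differently. A gene whose share falls can still have more RNA per cell, and fewer cells with a transcript cannot be told apart from less RNA in each cell. On this scale 210 genes (1.57% of those compared) were at least 2-fold higher in mP/lP after adding 0.1 to both values, and 540 (4.03%) at least 2-fold lower. 42.6% of genes had a ratio above 1, and the counts and medians of gene lists given further on stand beside these shares over all genes. The median log2 ratio was -0.09, with -0.93 at the 5th percentile and 0.72 at the 95th. 14731 genes had a mean under the minimum of 0.05 or were at 0 in both, and a gene near 0 in one population passed this minimum only through the other and so had to differ. 84 of the higher genes lay just inside the limit, at log2 ratios from 1 to 1.1, and 113 further genes just outside, from 0.9 to 1. The higher genes held 3.13% of RNA in L/Z/eP against 7.22% in mP/lP, and the lower genes 6.64% and 2.35%. The neighbouring steps differed from this pattern in their counts, with 831 higher and 606 lower genes in L/Z/eP against eL/L/Z and 750 higher and 28 lower from mP/lP to diplotene.

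Multiplied by the mean UMIs per cell, 2038 in L/Z/eP against 9510 in mP/lP, the picture per cell was another one. 11111 genes were then at least 2-fold higher and 0 at least 2-fold lower, and the median gene had 4.28 times as many UMIs per mP/lP cell. Only 27 of 13394 genes had fewer UMIs per cell in mP/lP, 11 of them on X. The pooled matrices used here hold no values per gene for cells whose barcode occurs in 1 library. The pooled shares times the mean UMIs of those cells, 2075 and 6409, gave a median gene with 2.83 times as many, 8353 genes at least 2-fold higher, and 389 genes with fewer, 148 of them on X. Among the 27 genes were Prdm9, which marks sites of meiotic DNA breaks, at 0.248 and 0.213 UMIs per cell, Gm4969, the meiotic entry factor MEIOSIN, at 0.0599 and 0.0439, and Zfy1, a zinc finger gene on Y, at 0.118 and 0.110. The lowest ratio was 0.733 for Gm4969, and 0.485 with the mean UMIs of cells whose barcode occurs in 1 library. Values from here on are shares again.

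The largest rises in share included genes of the spermatid nucleus and tail. Prm1, which codes for protamine 1, went from 0.135 to 1.13 UMIs per 10000 (log2 ratio 2.39), Tnp2, a transition protein, from 0.375 to 1.38 (1.64), and Odf1 of the outer dense fibres from 0.148 to 0.689 (1.67). Asxl3, of a family of Polycomb cofactors, rose most, from 0.257 to 2.61 (2.93). Nkain2, which codes for a protein that binds the sodium pump, rose from 1.46 to 7.39 (2.27), and Chl1, a cell adhesion gene, from 0.413 to 1.36 (1.51). All 6 were higher still in round spermatids, at 4.71 to 42.4 UMIs per 10000. Pkmyt1, a kinase that holds back CDK1, was different. It went from 0.596 to 2.03 (1.61) and was at 1.47 in diplotene cells and 0.958 in round spermatids. Of 19 postmeiotic genes compared, 5 were at least 2-fold higher and 0 lower, against 1.57% of all genes, and 16 had a ratio above 1. Spermatid markers rose 3.14-fold in sum beside these values.

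Precursors of piRNAs made up 53 of the 210 higher genes. They fell into groups by name. Of 100 piRNA genes named by chromosome band, 49 were at least 2-fold higher and 1 lower, 97 had a ratio above 1 and the median log2 ratio was 0.99. Their summed share of RNA went from 2.15% to 4.37%. Of 112 piRNA genes compared that are named for another gene, 4 were higher and 8 lower, with a median of -0.23 and a share of 1.17% and 1.23%. The highest band-named genes in mP/lP were 10-qB4-6488, from 14.8 to 31.3 UMIs per 10000 (log2 ratio 1.08), and 2-qF1-2536, from 10.3 to 23.1 (1.16). 1-qD-2017 had the largest ratio, from 0.565 to 1.83 (1.54). Overlapping names share reads, and the noncoding gene Gm14244 at the locus of 2-qF1-2536 went from 6.56 to 14.2 (1.10).

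The same group was more accessible. Accessibility is given in units that sum to 1000000 in each population, mitochondrial genes included, and 1 unit was added before a ratio was taken. It was at least 2-fold higher in mP/lP at 244 genes (0.797%) and at least 2-fold lower at 1 (0.00327%), with a median log2 ratio of 0.14 and a ratio above 1 at 72.0% of genes. Mitochondrial genes held 63.8% of this signal in L/Z/eP against 60.3% in mP/lP, and without them the median was 0.06 and that share 57.3%. 48 of the 244 were piRNA genes, 98 were genes on X and 98 neither. The largest gains among genes of at least 20 units were at piRNA loci. 5-qF-14508 and 5-qF-14224 had nearly equal values, from 12.5 to 32.2 and from 12.5 to 32.1 units (log2 ratios 1.30 and 1.30). 7-qD2-11976 and Gm21269 were also alike, both at 16.3 in L/Z/eP and at 39.2 and 39.5 in mP/lP. Of the 100 band-named piRNA genes, 45 were at least 2-fold more accessible, with a median log2 ratio of 0.96, and of 115 named for another gene, 3, with a median of 0.03.

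54 of 13381 genes with both readouts (0.404%) were at least 2-fold higher in both, and 34 of them were piRNA genes. Among the 210 genes higher in RNA the median accessibility log2 ratio was 0.68 and 190 had a ratio above 1. It was -0.05 among the lower genes and 0.12 among the rest. Across genes, which are not replicates, the log2 ratios of both readouts had a Spearman correlation of 0.38 and a Pearson correlation of 0.40. 12-qE-23911 and 12-qE-7089, a pair of piRNA genes with nearly equal accessibility, rose from 7.02 to 14.3 and from 6.95 to 14.2 UMIs per 10000 and from 10.6 to 25.6 and from 10.8 to 25.8 accessibility units. 10-qB4-6488 passed the limit in RNA alone, its accessibility being 59.2 and 65.3 accessibility units.

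**Figure D2:**
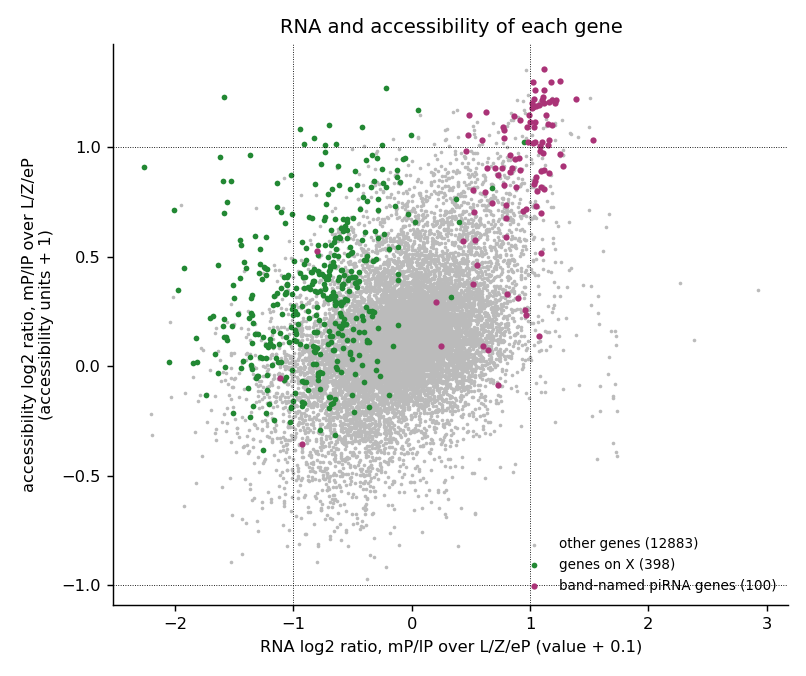
RNA log2 ratio (x axis, value + 0.1) and accessibility log2 ratio (y axis, accessibility units + 1) of mP/lP over L/Z/eP for each gene with both readouts; dotted lines mark 2-fold. Band-named piRNA genes gather at upper right, where 32 of 100 pass both limits, and genes on X lie to the left, 391 of 398 with an RNA ratio below 1.

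Promoter windows of RefSeq (GRCm38.p6, 250 bases before to 50 after the start) are shown for 3 noncoding genes of piRNA loci, all higher in both readouts, and for Ldhc and Piwil1, which are described below. Capitals mark every match to AACNG, the core bound by MYB proteins, on either strand, and to its longer form AACNGTT, which includes it.
Gm14244 (chr2:127691604-127691903, plus strand): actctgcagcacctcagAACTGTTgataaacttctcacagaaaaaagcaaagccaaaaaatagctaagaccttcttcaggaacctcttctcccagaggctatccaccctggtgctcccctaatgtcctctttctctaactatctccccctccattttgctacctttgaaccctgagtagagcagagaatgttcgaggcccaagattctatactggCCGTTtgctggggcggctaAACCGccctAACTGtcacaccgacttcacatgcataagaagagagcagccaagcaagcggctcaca
Gm10619 (chr7:73816454-73816753, minus strand): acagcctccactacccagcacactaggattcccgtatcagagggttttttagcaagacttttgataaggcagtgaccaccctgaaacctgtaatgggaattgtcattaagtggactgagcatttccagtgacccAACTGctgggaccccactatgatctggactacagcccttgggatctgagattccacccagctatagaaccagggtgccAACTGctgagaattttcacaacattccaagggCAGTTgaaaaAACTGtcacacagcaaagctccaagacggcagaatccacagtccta
Gm21269 (chr7:73825674-73825973, plus strand): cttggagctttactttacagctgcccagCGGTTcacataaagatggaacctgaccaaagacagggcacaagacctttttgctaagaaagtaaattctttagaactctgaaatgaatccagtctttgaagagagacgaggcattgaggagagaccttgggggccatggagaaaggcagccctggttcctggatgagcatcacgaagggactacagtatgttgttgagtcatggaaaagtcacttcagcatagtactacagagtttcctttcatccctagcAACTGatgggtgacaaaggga
Ldhc (chr7:46861013-46861312, plus strand): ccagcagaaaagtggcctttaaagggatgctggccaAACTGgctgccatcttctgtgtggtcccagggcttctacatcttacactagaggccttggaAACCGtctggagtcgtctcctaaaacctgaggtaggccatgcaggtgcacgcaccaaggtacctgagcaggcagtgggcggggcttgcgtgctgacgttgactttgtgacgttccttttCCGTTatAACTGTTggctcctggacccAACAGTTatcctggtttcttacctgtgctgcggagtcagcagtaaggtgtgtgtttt
Piwil1 (chr5:128735996-128736295, plus strand): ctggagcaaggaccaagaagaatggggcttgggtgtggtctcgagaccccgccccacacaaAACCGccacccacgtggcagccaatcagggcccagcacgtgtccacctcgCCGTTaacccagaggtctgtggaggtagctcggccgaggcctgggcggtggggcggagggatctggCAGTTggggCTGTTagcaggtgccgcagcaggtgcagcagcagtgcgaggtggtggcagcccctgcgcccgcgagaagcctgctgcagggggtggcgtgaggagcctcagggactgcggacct
These windows held 5, 4, 2, 7 and 4 matches to AACNG. The core is short, and 80.3% of all 32851 promoter windows hold it, so its presence sets none of these apart. AACNGTT was in 4.45% of all windows and, in this set, in those of Gm14244 and Ldhc. A window was found for 94 of the 210 genes higher in RNA, since piRNA genes named by band have no entry, and a comparison of motif shares over the higher genes is void for that reason.

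21 protocadherin gamma genes were among the 210, all of those compared. Those near 0 in L/Z/eP passed the RNA minimum only through mP/lP, so for them the filter itself decided that they passed the limit. They sit in 1 cluster of adhesion genes that share their last exons and reads, so they are closer to 1 measurement than to 21. Their values ran from 0.000115 to 0.0922 UMIs per 10000 in L/Z/eP and from 0.199 to 0.367 in mP/lP, with accessibility log2 ratios from -0.42 to 0.24. 136 higher genes were neither piRNA nor protocadherin gamma genes.

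Fewer genes of the piRNA machinery passed the limit. Of 22 genes for piRNA pathway proteins, 2 were at least 2-fold higher (1.57% of all genes) and 0 lower, 20 had a ratio above 1 (42.6% of all genes), and the median log2 ratio was 0.39. Piwil1, the PIWI protein of pachytene, went from 4.85 to 11.4 UMIs per 10000 (1.21) with accessibility of 2.21 and 2.58 accessibility units. Tdrd6, a tudor protein of the chromatoid body, went from 1.10 to 2.75 (1.25) and from 12.1 to 24.6 accessibility units. Rnf17, another tudor protein, was level at 7.80 and 7.84, and Btbd18, a factor for transcription of piRNA precursors, went down from 0.609 to 0.289 (-0.87).

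Of 17 germline RNA-binding proteins, 2 were higher, against 1.57% of all genes, and 0 lower. Ybx3, which stores messengers, rose from 7.42 to 17.6 UMIs per 10000 (log2 ratio 1.23), and Adad2 from 1.29 to 3.45 (1.35). Ybx2, the germ cell Y-box protein, went from 21.6 to 35.3 (0.70).

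Testis forms of energy enzymes had the highest median of the 24 gene lists. All 13 compared had a ratio above 1, 5 were at least 2-fold higher, and the median was 0.81 in RNA. In accessibility it was 0.63 with Aldoart1, which lay below the RNA minimum, included. Among the 13 alone the middle value was 0.59, that of Cox8c. Ldhc, the testis lactate dehydrogenase, went from 5.40 to 11.7 UMIs per 10000 (1.10) and from 12.3 to 25.7 accessibility units. Cox8c, a subunit of cytochrome oxidase, went from 2.78 to 6.48 (1.19), Pdha2 of pyruvate dehydrogenase from 0.628 to 1.57 (1.19), Cox6b2 from 1.72 to 3.94 (1.15), and the glucose carrier Slc2a3 from 5.41 to 11.1 (1.03). Of their 11 somatic counterparts compared, 0 were at least 2-fold higher or lower, 2 had a ratio above 1 and the median was -0.33. Ldhb went from 0.300 to 0.128 (-0.81), while Ldha went from 0.675 to 1.17 (0.72).

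Among genes for sperm structures, most of those of the tail had higher shares, and few of either list below passed the limit. In the sperm tail list 37 of 40 had a ratio above 1, against 42.6% of all genes, and 3 were at least 2-fold higher, with medians of 0.55 in RNA and 0.49 in accessibility. Odf1 was the largest. Spag16, a central pair protein, changed little in RNA, from 8.46 to 10.8 UMIs per 10000 (0.35), and more in accessibility, from 13.2 to 25.3 accessibility units (0.89). Dnah8, a dynein chain, went from 5.83 to 9.72 (0.73). Of 26 acrosome and fertilization genes, 4 were higher, against 1.57% of all genes, and 0 lower, and the medians were 0.25 and 0.44. Crisp2 rose from 1.68 to 3.79 (1.13), and Adam2, needed for sperm to bind eggs, from 3.90 to 8.26 (1.06). Clgn, a chaperone of ADAM proteins, went from 4.92 to 9.12 (0.88).

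Of 22 transcription factors known for pachytene, 0 were at least 2-fold higher and 3 lower. With a limit of 1.5-fold, 6 were higher and 5 lower, and 14 had a ratio above 1. Mybl1 was at 1.42 UMIs per 10000 in L/Z/eP against 1.51 in mP/lP (log2 ratio 0.09), and Brdt at 4.26 and 5.07 (0.25). Kctd19, a partner of the repressor ZFP541, had the largest ratio, from 2.41 to 4.49 (0.87), with Gtf2a1l, a testis form of TFIIA, from 0.256 to 0.545 (0.86), Tcfl5 from 1.51 to 2.64 (0.77), and Rfx2, a factor for ciliary genes, from 1.79 to 3.13 (0.77). Zfp541 itself was at 2.91 and 2.86. The 3 lower genes were all on sex chromosomes. These were Taf7l, a TFIID subunit on X, from 1.46 to 0.451 (-1.50), and Zfy1 (-1.65) and Zfy2 (-1.31) on Y. All 22 had an accessibility ratio above 1, as did 72.0% of all genes, with a median of 0.26 against 0.14.

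In the general machinery no gene was at least 2-fold higher. Of 13 subunits of RNA polymerase II, 0 were at least 2-fold apart and 7 had a ratio above 1, Polr2g going from 0.641 to 0.905 UMIs per 10000 (log2 ratio 0.44). Polr2a, the largest subunit, was at 3.02 and 2.88 UMIs per 10000 (log2 ratio -0.06). Among 19 genes of pausing and release, Cdk9, the kinase of P-TEFb, went from 1.01 to 1.77 (0.76) and Ell2, an elongation factor and the single gene past the limit, from 0.543 to 0.202 (-1.09). Of 16 regulators of meiotic entry, Stra8 fell from 0.964 to 0.272 (-1.52) and Gm4969 from 0.294 to 0.0462 (-1.43). Nfya, Nfyb and Nfyc, the subunits of NFY, had log2 ratios of 0.51, 0.17 and -0.43.

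The lists of early prophase differed among themselves. DNA break formation had the lowest median of the lists, at -1.24, with 6 of 10 genes at least 2-fold lower against 4.03% of all genes. Prdm9 went from 1.22 to 0.224 UMIs per 10000 (-2.02). Its partner Zcwpw1 went from 1.95 to 0.789 (-1.20), the remodeller Hells from 3.20 to 1.25 (-1.29), and Gm960, a subunit of the SPO11 complex, from 0.922 to 0.254 (-1.53). Spo11, the enzyme that cuts, went the other way, from 0.715 to 0.999 (0.43). Accessibility of Prdm9 was not lower, at 30.9 and 38.8 accessibility units.

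In strand exchange 2 of 17 genes were lower, the recombinase gene Dmc1 from 1.88 to 0.508 UMIs per 10000 (log2 ratio -1.70) and Brca2 from 5.18 to 2.11 (-1.25). 8 of the 17 had a ratio above 1, the largest being those of Psmc3ip, a partner of DMC1, from 0.761 to 1.20 (0.59), and Swi5, from 2.58 to 3.88 (0.57). Of 9 cohesin genes 4 were lower, among them Smc3 from 2.96 to 1.06 (-1.40) and X-linked Smc1a from 0.628 to 0.167 (-1.45), and all 9 had a ratio below 1. Of the synaptonemal complex genes, Sycp1 of the transverse filaments went from 25.3 to 16.6 (-0.60), Sycp2 of the axes from 20.2 to 18.1 (-0.16), and 4930447C04Rik, which codes for SIX6OS1, from 7.11 to 3.33 (-1.07), the single gene of 11 past the limit. Sycp3 of the axes went the other way, from 2.81 to 3.82 (0.43), as did Syce1 of the central element, from 2.21 to 2.97 (0.41). Of 15 crossover genes 2 were lower, X-linked Tex11 from 0.850 to 0.268 (-1.37) and autosomal Msh5 of the MutS gamma complex from 1.44 to 0.646 (-1.05), and 6 had a ratio above 1. Cntd1, which promotes crossover maturation, had the largest, going from 1.64 to 3.29 (0.96). Outside these lists, Tex15, a germ cell gene needed for break repair, fell from 12.1 to 2.86 (-2.04) and the proliferation gene Mki67 from 5.99 to 1.39 (-2.03). Genes of mitotic germ cells, 764 compared from a list the study drew from sorted cells, held 158 lower genes (20.7%) and 0 higher, with a median of -0.65. That list was chosen for lower RNA in pachytene and later cells than in spermatogonia, so its direction is not independent evidence. Sertoli markers fell to 0.430 of their sum beside these values.

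**Figure D3:**
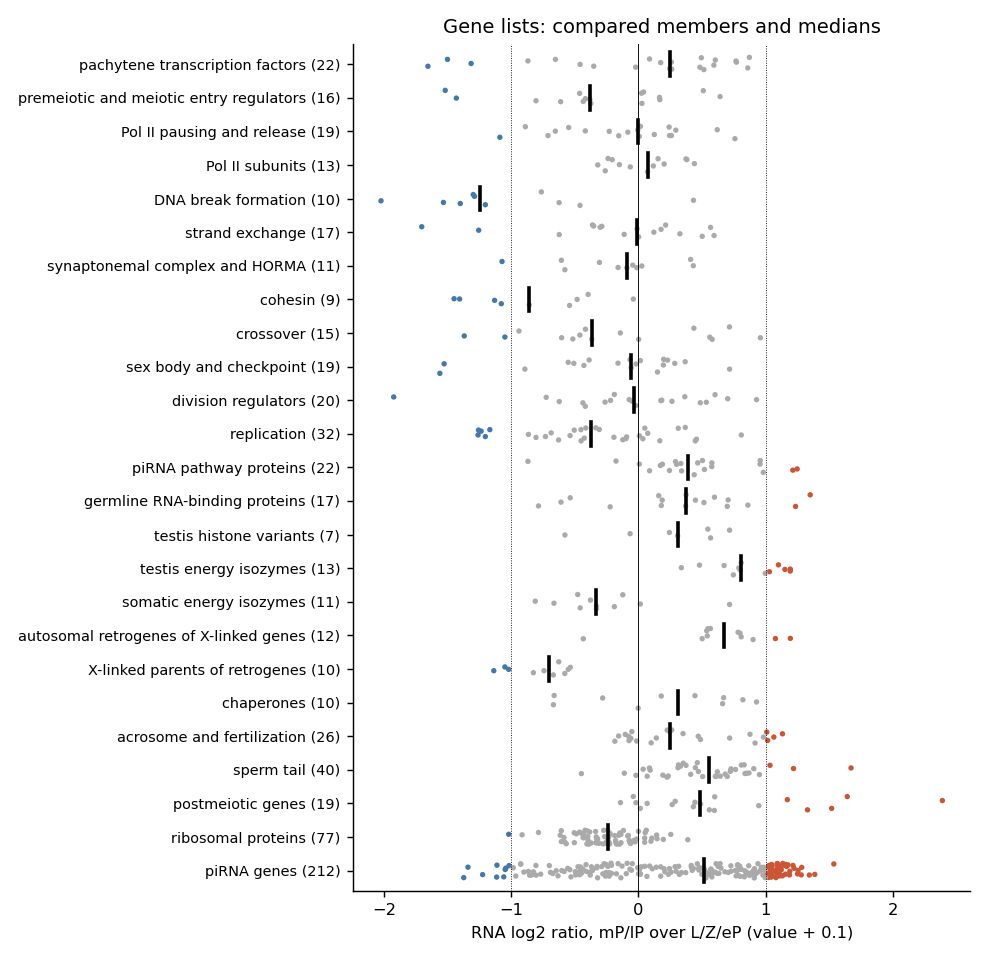
RNA log2 ratio of mP/lP over L/Z/eP (x axis, value + 0.1) of each compared member of the gene lists, with the number compared in brackets; black bars are medians, coloured points are at least 2-fold higher or lower, and vertical scatter carries no value. Medians ran from -1.24 for DNA break formation to 0.81 for testis energy isozymes.

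The X chromosome had a lower share of RNA and a higher share of accessibility in mP/lP. Its genes held 1.53% of RNA in L/Z/eP against 0.555% in mP/lP, a ratio of 0.363, while the ratios of the 19 autosomes ran from 0.931 to 1.14. Of 398 X genes compared, 124 (31.2%) were at least 2-fold lower and 0 higher, against 395 of 12269 autosomal genes (3.22%), and 391 had a ratio below 1. On Y, 5 of 9 genes were lower. Pet2 fell from 5.10 to 0.984 UMIs per 10000 (log2 ratio -2.26), Thoc2 of the mRNA export complex THO from 4.10 to 0.941 (-2.01), Atrx, a chromatin remodeller, from 2.02 to 0.410 (-2.05), and Huwe1, a ubiquitin ligase, from 3.37 to 0.881 (-1.82). Ndufa1 of respiratory complex I fell less, from 1.29 to 0.825 (-0.58). Akap4, a sperm tail gene, had the largest ratio on X, from 0.0921 to 0.271 (0.95). X-linked RNA was higher again in diplotene cells, at 1.03%, and in round spermatids, at 1.22%, and had been 2.24% in eL/L/Z.

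Per cell, X-linked UMIs were not lower. The share of X times the mean UMIs gave 31.1 X-linked UMIs per L/Z/eP cell and 52.8 per mP/lP cell, a ratio of 1.69 against 4.71 for all other genes. Without shared barcodes the values were 31.7 and 35.6, a ratio of 1.12 against 3.12, and with the mean UMIs of the 25 dpp library 31.2 and 36.5, a ratio of 1.17 against 3.25. The share of X is that of the pooled matrix in all 3 cases and just the mean UMIs differ, so these are 1 comparison on 3 scales.

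Accessibility of X went the other way. Of nuclear signal X held 1.56% in L/Z/eP against 1.91% in mP/lP, a ratio of 1.22, and the autosomal ratios ran from 0.962 to 1.02. eL/L/Z had 1.44%, diplotene cells 1.58% and round spermatids 1.41%, so that of these 5 populations mP/lP had the highest share. 98 of 966 X genes (10.1%) were at least 2-fold more accessible, against 0.493% of all other genes. This count depends on weak signal, being 0 with 5 units added in place of 1 and 16 of 129 genes with a minimum mean of 5 units, and it was 157 of 392 without mitochondrial genes. Their medians were 1.66 accessibility units in L/Z/eP against 4.91 in mP/lP, where all genes had 4.44 and 4.90, and 85 of them were below the RNA minimum or absent from that matrix. Of the 124 X genes lower in RNA, 99 (79.8%) had an accessibility ratio above 1, and 70 lay above the ratio of the median gene. A ratio above 1 was more common over all of X, at 883 of 966 genes, and was found at 72.0% of all genes. Pet2 went from 4.25 to 8.87 accessibility units (0.91) and Thoc2 from 1.28 to 2.73 (0.71), while Atrx stayed at 12.5 and 12.7.

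**Figure D4:**
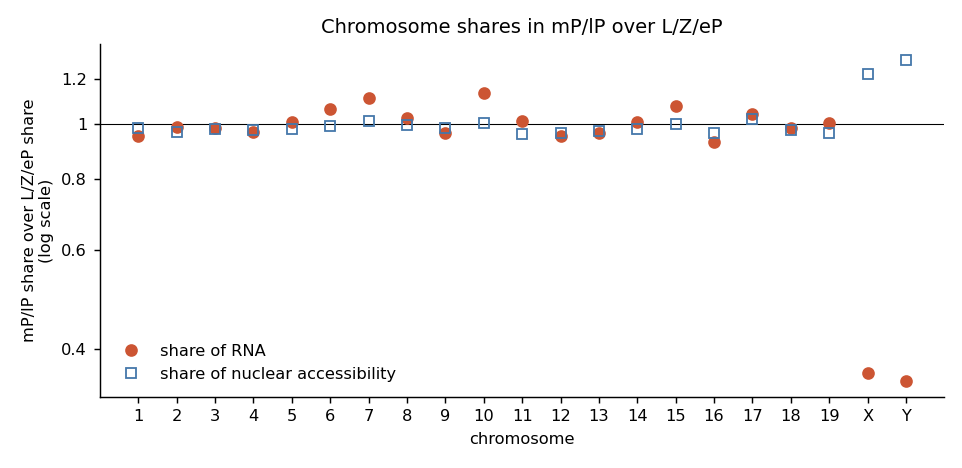
Share of RNA (filled circles) and of nuclear accessibility (open squares) held by each chromosome in mP/lP, divided by its share in L/Z/eP, on a log axis. X is at 0.363 in RNA and at 1.22 in accessibility, and autosomes lie between 0.931 and 1.14 in both.

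Autosomal retrogenes, intronless copies of X-linked genes that serve while X is silent, had higher shares where their parents had lower ones. Of 12 retrogenes compared 11 had a ratio above 1 and 2 were at least 2-fold higher, and of 10 parents all had a ratio below 1 and 3 were at least 2-fold lower. The parents were near the share over all of X, where 391 of 398 genes had a ratio below 1 and 124 were at least 2-fold lower. In 10 pairs both copies could be compared, Gk being the parent in 2 of them, and in 9 the ratio was above 1 for the retrogene and below 1 for the parent. The difference of log2 ratios ran from 0.70 to 1.83, with a median of 1.36. It was largest for the transketolase pair, Tktl2 from 0.395 to 0.752 UMIs per 10000 (0.78) and Tktl1 from 0.605 to 0.241 (-1.05). Cetn1, a centrin, rose from 0.624 to 1.43 (1.08), and Rpl39l of the ribosome from 1.003 to 1.505 (0.54) as Rpl39 fell from 0.400 to 0.147 (-1.02). Utp14b was the exception, at 0.481 and 0.330 (-0.43), with its parent Utp14a at 0.354 and 0.106 (-1.14). Retrogenes and parents are similar in sequence, and reads that map to both were not counted. In accessibility the retrogenes had a median log2 ratio of 0.61 and the parents of 0.18, and the retrogene had the larger ratio in 8 of the 10 pairs. Both medians also cover members below the RNA minimum, Ubl4b among the retrogenes and Pgk1 and Pdha1 among the parents.

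**Figure D5:**
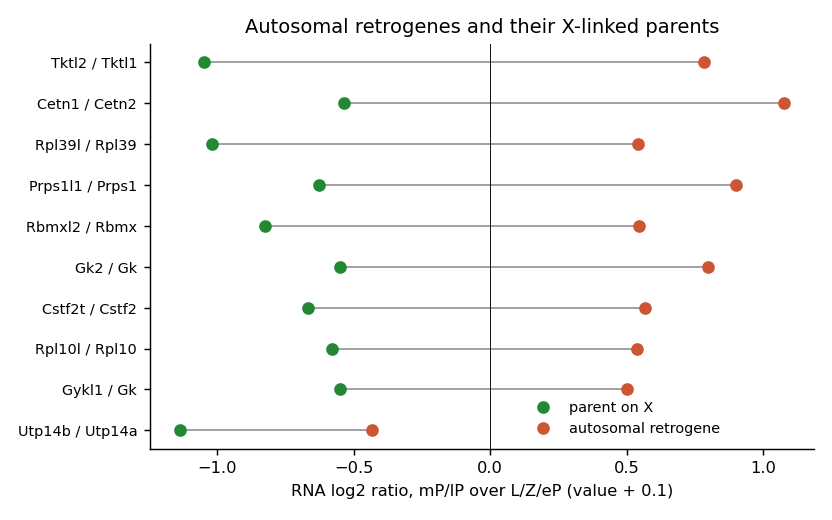
RNA log2 ratio of mP/lP over L/Z/eP (x axis, value + 0.1) for 10 autosomal retrogenes and their X-linked parents, 1 pair per line. The retrogene lies above 0 and the parent below it in 9 pairs, Utp14b and Utp14a being the exception.

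Losses of accessibility were small. The largest among genes of at least 20 units was at Hist1h1c, a linker histone gene, from 38.6 to 20.7 accessibility units (log2 ratio -0.87). Of the 10 largest, 5 were histone genes made in S phase, among them Hist1h1a from 51.5 to 30.2 (-0.75), and pi-Hist1h1a.1 shares its signal. Others were Zyg11a, from 26.3 to 14.5 (-0.82), and Pdk1, a kinase of pyruvate dehydrogenase, from 26.2 to 14.8 (-0.79). Captured RNA of Hist1h1c was low in both populations, at 0.0756 and 0.0408 UMIs per 10000. The study captured RNA with poly(T) oligos, so RNA without a poly(A) tail can be missed, and its part here was not tested.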

How the data were processed

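Nuclei of testes were read by simultaneous scRNA-seq and scATAC-seq, with 1 library per condition and assay and library totals from 30227701 to 64967271 UMIs. Per the study's methods and the submitters' processing notes, the authors aligned RNA reads to mm10 with STAR 2.7.10b, kept unique reads, collapsed UMIs, removed cells by genes and mitochondrial share and doublets with DoubletFinder, normalised with Seurat 5.2.1, and aligned scATAC-seq fragments with BWA 0.7.12, filtered with ArchR 1.0.3. The authors deposited raw counts of UMIs, genes and fragments per cell, the percent of mitochondrial UMIs, the TSS enrichment as a ratio, the fraction of fragments in promoters, and pooled values per gene and population on a natural log scale. The values themselves showed 1 plus a mean under the log, and these means sum to 10000 in each population. The study's methods take promoter accessibility from coverage close to the start site of a gene, and whether the deposited matrix holds that measure is not given in the sources used here. The cell table names the Cre/+ library CreKO, and it was matched by name to the sample titled Cre. 21 further columns were not used.

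Values were turned back with the exponential in Python 3.11.15 (pandas 2.3.3). For RNA, 0.1 was added to both values before the log2 ratio, and a gene needed a mean of 0.05 over both populations. Accessibility was rescaled to a sum of 1000000 with 1 added, and mitochondrial genes were left out of its counts. A 2-fold limit without a test decided which genes were counted, since libraries are pooled. Medians of UMIs and genes per cell were also compared within 3 libraries, with an exact paired permutation test of the log2 ratios. Counting was checked on simulated columns without noise and with changes well past the limit. That tests the code and not calls near the limit or near 0. Shares of cells have exact Clopper-Pearson 95% intervals. UMIs per cell of a gene are its pooled value times the mean UMIs, an approximation, since the pooled mean may weight cells differently. Chromosomes came from RefSeq, which placed 23836 of 28125 genes. Genes per cell could not be compared in thinned cells and were compared in windows of UMIs.

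Members, gene lists and markers were chosen with earlier results of these data known. Genes were named from 24 lists (all transcription factors and entry regulators, otherwise the 4 highest members and both extremes), the 10 largest ratios in each direction (RNA mean at least 0.2, accessibility at least 20), markers, the 5 highest genes up in both readouts, the 5 highest genes of X and Y in each population, and retrogene pairs. Other called members of lists, genes of X above 1 and those lower per cell were named after their values were seen. Some genes that this rule names are not reported here. Alternatives covered pseudocounts, filters, scaling, libraries, clusters and the earlier population.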

Additional observations from a re-analysis of the deposited data

How the results depend on the processing

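Limits come first. Each population has 1 pooled value per gene, so no replicate error stands behind a ratio. The libraries and the shared barcodes can be left out of values per cell, but not of values per gene, and differences in RNA content and in capture of RNA cannot be told apart in UMIs. 14731 genes that lay below the RNA minimum or at 0 were not compared. For values per gene no paired analysis was possible because the matrices pool the libraries. Paired within the 3 libraries that hold both populations, an alternative chosen after seeing the data, the ratio was 5.68 for UMIs and 3.95 for genes per cell (geometric means).

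The counts of genes past 2-fold followed the amount added before the ratio. In RNA 456 genes were higher and 1564 lower with 0.01 added, and 60 and 92 with 0.5. In accessibility the counts were 1571 and 19 with 0.1 added, and 19 and 0 with 5. A minimum of 0.2 and centring on the median gene moved both RNA counts by less than 1.5-fold. Dropping the minimum could not move them, since a gene below it cannot reach 2-fold once 0.1 is added. Scaling without mitochondrial genes gave 392 more accessible genes and 28 less accessible ones, and a minimum of 5 accessibility units gave 129 more accessible ones. X held 98 of the 244 more accessible genes, but 304 with 0.1 added, 0 with 5 added, 157 without mitochondrial genes and 16 with the minimum of 5 units. Against eL/L/Z as the earlier population, 1582 genes were higher and 2470 lower in RNA, and 935 and 2794 in accessibility. Leaving out piRNA and protocadherin gamma genes left 136 genes higher in RNA, and leaving out X left 146 more accessible, both chosen after seeing the data.

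Scaling by mean UMIs per cell adds 2.22 to a log2 ratio, apart from the effect of the 0.1 added. It gave 11111 higher and 0 lower genes, and 8353 and 0 with cells whose barcode occurs in 1 library, also chosen after seeing the data. The 28 gene lists tried here, which include all piRNA genes and 3 lists of the study beside the 24, had a median above 0 in 14 cases as shares and in all 28 per cell. Of 105 named RNA values, Atm not being among them, 23 that were at least 2-fold lower as shares turned above 0 per cell with the mean UMIs of all cells. 13 of the 23 were below 0 again with the mean UMIs of cells whose barcode occurs in 1 library and 11 with those of the 25 dpp library, both chosen after seeing the data. Of the 23, Brca2, Ell2, Hells, Pole, Rpl39, Smc3, Tktl1, Zcwpw1, Msh5 and 4930447C04Rik were above 0 on all 3 scales. With all cells the log2 values were 0.50 for Taf7l, 0.50 for Zfy2, 0.36 for Stra8, 0.70 for Ell2, 0.14 for Tex15, 0.11 for Mki67, 0.10 for Thoc2, 0.28 for Huwe1, 0.85 for Hells, 0.89 for Zcwpw1 and 0.33 for Gm960. They were 0.32 for Dmc1, 0.92 for Brca2, 1.12 for 4930447C04Rik, 0.27 for Smc1a, 0.72 for Smc3, 0.51 for Tex11, 0.49 for Scml2, 0.39 for Utp14a, 0.65 for Rpl39, 0.80 for Tktl1, 1.01 for Msh5 and 0.79 for Pole. With 0.01 added, 102 of the 105 moved by less than 1.5-fold and none changed direction. The named accessibility values, also with 0.1 added or without mitochondrial genes, moved by less than that in each case.

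The ratio of UMIs per cell was 11.3 within the Cre/+ library and 2.53 among cells with at least 1000 genes, and that of genes per cell 6.79 and 1.996. Leaving out each library in turn gave 3.57 to 9.16 for UMIs and 2.71 to 5.99 for genes, the highest being without 25 dpp in both. In windows of UMIs the ratio of genes was 1.06, 1.09 and 1.11. The share of X in RNA and in accessibility moved by less than 1.5-fold with protein-coding genes alone, without the 5 highest genes of X, and with GENCODE names for genes that RefSeq does not place. AACNGTT was in 7.08% of windows of genes at least 2-fold higher in RNA and in 0% of the 2 windows at 4-fold, a comparison that is void for the reason given above.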

Other observations

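Of 7 histone variants compared, 0 were at least 2-fold higher or lower, with a median log2 ratio of 0.31. They were H1fnt, Hils1, H1f0, H2afx, H2afz, H3f3a and H3f3b. The testis histone genes Hist1h1t, Hist1h2ba and Hist1h2aa lay below the RNA minimum, so whether they changed was not tested. Of 77 ribosomal protein genes compared, 0 were at least 2-fold higher and 1, X-linked Rpl39, lower, and the median log2 ratio was -0.24. Rps20, of the small subunit, went from 7.21 to 5.34 UMIs per 10000 (-0.43) and Rps28 from 5.56 to 3.19 (-0.79). Multiplied by mean UMIs per cell the median of this list was 1.87. Of 10 chaperone genes 0 were at least 2-fold apart, and Hspa2, the HSP70 form needed to leave pachytene, went from 3.86 to 7.43 (0.93), while Hspa8, its constitutive relative, went from 2.03 to 1.24 (-0.67) and Hsp90aa1 was level at 16.3 and 16.2.

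Of 20 division regulators compared, X-linked Ccnb3, a cyclin that falls before pachytene, went from 1.18 to 0.237 UMIs per 10000 (log2 ratio -1.92), and Fbxo43, an inhibitor of the anaphase-promoting complex, from 1.02 to 1.72 (0.70). Of 19 genes of the sex body and checkpoint, 2 were at least 2-fold lower, against 4.03% of all genes, and 0 higher. These were autosomal Atm, from 1.16 to 0.338 (-1.53), and X-linked Scml2, from 1.98 to 0.605 (-1.56). The kinase Atr was at 7.92 and 7.61 (-0.06), and H2afx, the histone phosphorylated on the sex chromosomes, at 1.70 and 2.86 (0.72). Of 32 replication genes 5 were at least 2-fold lower, against 4.03% of all genes, and 0 higher, among them Pole, a polymerase subunit, from 1.57 to 0.598 (-1.26), and Mcm7 of the replicative helicase went the other way, from 0.436 to 0.839 (0.81).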
